A study of Mus musculus with 12 samples.

Results

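The lung of heterozygous mouse offspring was compared between mothers that lacked the bile salt export pump gene, Abcb11, and wild-type mothers, on 6 arrays that pair by stage. The stages were E17.5 and E18.5, days of embryonic life, and PN0, the day of birth. Each stage held 1 array with an Abcb11-/- mother and 1 with a WT mother. All 6 lungs came from Abcb11+/- C57BL/6 offspring. Those of an Abcb11-/- mother had a WT father, and those of a WT mother had an Abcb11-/- father, so the genotype of the mother and the parent that gave the deleted allele cannot be told apart. The knockout mothers carried the deletion in every tissue. The other 6 of the 12 arrays were livers of female mice aged 1.5 months, 3 WT and 3 Abcb11-/-, and serve here only as a separate readout.

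Genes were sought whose log2 value differed by at least 1.5-fold (0.585 on the log2 scale) in a single direction at all 3 stages, with the brightest of the 6 lung arrays at a log2 value of 7 or more. Of 17097 genes, 6081 reached that brightness and 7 met the rule. Hbb-y, Steap4, Brinp1, Xist, Bhlhe40 and Chil1 were higher with an Abcb11-/- mother, 0.0987% of the 6081 genes. Ccl21b was lower, 0.0164%. In either direction the share was 0.115%. The differences by mother chose these genes, so they are given as a description without a test.

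There was 1 array for each mother and stage, so differences within a stage are without replicates. The labels give each array a mouse, and a legend counts 3 embryos or neonates per group. Xist, an RNA of female cells, was at log2 values of 8.34 to 10.19 on the 6 arrays. The Y-linked gene Eif2s3y was at 6.37 to 8.06 on the same arrays. Each array thus read RNA of both sexes, and how many animals of either sex it held is not stated. Sftpc, the surfactant protein that defines type II cells of the lung, was at log2 values of 13.23 to 13.39 on all 6 arrays. Abcb11 was at 2.96 to 3.20, near the dim end, on arrays whose medians were 3.63 to 3.68, so it was not a check of the genotype in this tissue. The array of the Abcb11-/- mother at E17.5 stood apart. There 12 of 13 genes of hepatocytes and 12 of 18 of skeletal muscle were past 1.5-fold higher, with mean log2 values of 9.79 and 6.34 against 5.31 and 3.84 with a WT mother. All 3 measured Y-linked genes were on the lower side at all 3 stages when the mother was Abcb11-/-.

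Bile acids are made by hepatocytes, which use Abcb11 to move them into bile. Mice without the pump have raised bile acids in blood, and bile acids of a pregnant mother can pass the placenta to the fetus. Near term the lung turns from growth to gas exchange, with surfactant production and thinning of the air sac wall. Over the same days the blood that fills it loses its last primitive red cells, made in the yolk sac, in favour of definitive red cells from the fetal liver.

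Beta-like globins sit in a cluster from which Hbb-y is expressed in primitive red cells and the adult genes in definitive red cells. The bases before the transcription start are shown for 4 of the 7 genes. RefSeq windows (GRCm38.p6) matched 6 of the 7 genes, and Bhlhe40 had none. Each run holds the 150 bases before the start, and capitals mark matches on either strand of the CCAAT box, of the CACCC motif bound by Klf factors, or of the TATAAA box. The AP-1 motif TGACTCA was searched too, as was the E-box CACGTG.
Hbb-y, chr7:103853208-103853357, minus strand: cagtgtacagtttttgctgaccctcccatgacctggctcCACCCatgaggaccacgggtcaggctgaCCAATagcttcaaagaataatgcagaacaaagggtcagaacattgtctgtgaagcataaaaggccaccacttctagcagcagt
Xist, chrX:103483234-103483383, minus strand: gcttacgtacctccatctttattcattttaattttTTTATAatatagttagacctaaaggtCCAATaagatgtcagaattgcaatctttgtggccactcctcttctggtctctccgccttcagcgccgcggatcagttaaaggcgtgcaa
Chil1, chr1:134182006-134182155, plus strand: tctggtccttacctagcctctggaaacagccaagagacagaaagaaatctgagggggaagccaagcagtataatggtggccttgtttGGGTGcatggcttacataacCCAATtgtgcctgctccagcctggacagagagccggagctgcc
Steap4, chr5:7960322-7960471, plus strand: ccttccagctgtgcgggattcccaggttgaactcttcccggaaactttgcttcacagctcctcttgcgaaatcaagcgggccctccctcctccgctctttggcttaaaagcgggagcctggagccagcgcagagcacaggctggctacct

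In the Hbb-y window CACCC stood at bases 111 to 107 and CCAAT at bases 83 to 79 before the start. Xist had TATAAA on the other strand at bases 115 to 110 and CCAAT at 89 to 85. Chil1 had CACCC on the other strand at 63 to 59 and CCAAT at 43 to 39. None of the 5 motifs was in the Steap4 window, nor in the windows of Brinp1 and Ccl21b, which are not shown. Among 32851 windows of the same length, CACCC was in 37.4%, CCAAT in 24.5%, TATAAA in 7.57%, CACGTG in 4.3% and TGACTCA in 2.84%. No motif contains another.

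Hbb-y, the embryonic epsilon-like globin of primitive red cells, differed most by mother of the 7 genes at the stage where each differed least. In the order WT mother and then Abcb11-/- mother, which all pairs of log2 values below keep, it was at 7.54 and 9.65 at E17.5, then 5.81 and 7.54 at E18.5, then 4.29 and 6.08 at PN0. The differences of 2.10, 1.72 and 1.78 correspond to 4.29-fold, 3.30-fold and 3.44-fold. At E18.5 the lung of the Abcb11-/- mother stood at the value that the lung of the WT mother had at E17.5, and at PN0, at 6.08, it was near the 5.81 that the WT mother had at E18.5. Hbb-y is read by 3 probe sets, all higher with an Abcb11-/- mother at all 3 stages. They differed by 2.10 to 2.29 at E17.5 and by 1.39 to 1.72 at E18.5, but by 0.28, 1.18 and 1.78 at PN0, where the first of these was below 1.5-fold at log2 values of 4.55 and 4.83.

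Other globins did not share that pattern at every stage. Hba-x, the embryonic zeta-like globin, was at 4.81 and 6.24 at E17.5, then 4.21 and 4.35, and 3.64 and 4.02. Hbb-bh1, another embryonic beta-like globin, was at 2.89 to 3.31 on all 6 arrays. The adult globins Hba-a1 and Hbb-b2 were at 13.23 to 13.57, close to the brightest value of the arrays (13.50 to 13.57), where a difference may not show. Hba-a2, another adult globin, read far lower, at 4.91 and 4.98, 4.41 and 4.91, and 4.64 and 4.82. It was higher with an Abcb11-/- mother at all 3 stages, but by less than 1.5-fold at each. In bulk tissue, fewer cells of a type and less RNA per cell cannot be told apart.

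Genes of red cells at large differed in part as Hbb-y did. Of 8 measured erythroid genes, the Abcb11-/- mother had 5 at least 1.5-fold higher at E17.5, 1 at E18.5 and 0 at PN0, with median differences of 0.89, 0.43 and 0.16. Their mean log2 value was 6.35, 6.13 and 6.53 at the 3 stages with a WT mother and 7.34, 6.54 and 6.66 with the Abcb11-/- mother. The high value at E17.5 is from the array on which hepatocyte genes were also high (mean 9.79 against 5.31), and the fetal liver is where definitive red cells are made. At E18.5 and PN0, where Hbb-y differed by 1.72 and 1.78, the hepatocyte means were 5.32 and 5.43, and 4.19 and 4.43. Of the 13 hepatocyte genes, 1 at E18.5 and 3 at PN0 were at least 1.5-fold higher, against 2.13% and 4.16% of all genes. At least 1.5-fold lower were 0 and 1, against 1.26% and 2.88%. At any size, 7 of the 13 were higher and 0 lower at all 3 stages. Epb42, Klf1, Rhag and Hemgn, 4 of the 8 erythroid genes, were higher at all 3 stages, as Hbb-y was, and 1, Hba-a1, was lower. Over all genes the shares at any size were 13.2% and 12.7%. Those 4 genes were dim at E18.5 and PN0, at log2 values of 2.83 to 3.96, near the array medians. Tfrc differed by 0.66, 1.05 and -0.18. Klf1, an activator of globin genes, differed by 1.47, 0.20 and 0.57, and Hemgn by 2.04, 0.52 and 0.40, while Rhag, a membrane channel of red cells, differed by 2.00, 0.40 and 0.38. Slc4a1, the anion exchanger of the red cell membrane, was at 7.17 and 8.29, 7.03 and 7.51, and 8.25 and 7.95 over the stages, lower at PN0. Alas2, the erythroid enzyme of heme synthesis, was at 8.40 and 8.68, 8.13 and 8.37, and 8.69 and 8.51. Bcl11a, a repressor of embryonic globin genes, was at 5.71 and 5.36, 4.28 and 4.75, and 4.01 and 3.88. The part of red cell number and of hepatocyte transcripts in the Hbb-y differences was not tested.

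Xist, the noncoding RNA that coats and silences an X chromosome in female cells, was higher with an Abcb11-/- mother at every stage. It was at log2 values of 9.13 and 9.79 at E17.5, 8.34 and 10.19 at E18.5, and 8.95 and 9.63 at PN0. All 3 of its probe sets were higher at all 3 stages, by 0.66 to 0.97, 1.75 to 1.92 and 0.68 to 0.83. The Y-linked genes lay on the other side. Eif2s3y, a translation factor gene, was at 7.81 and 7.45, 7.79 and 6.37, and 8.06 and 7.37. Kdm5d, a histone demethylase gene, was at 7.11 and 6.55, 6.37 and 5.16, and 6.18 and 5.90. Uty was at 5.97 and 5.51, 6.01 and 4.47, and 4.82 and 4.81. The stage with the widest Xist difference, E18.5, also had the widest difference in each of these Y-linked genes. The labels give no sex for the lungs. In the livers, labelled as female, Eif2s3y averaged 2.25 in WT and 2.34 in Abcb11-/- mice. The part of the share of female animals and of Xist per female cell in these differences was not tested.

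Bhlhe40, a basic helix-loop-helix repressor that responds to hypoxia and feeds back on the circadian clock, was at 7.17 and 7.78 at E17.5, 7.47 and 8.33 at E18.5, and 7.18 and 8.57 at PN0. With a WT mother it spanned 0.31 over the stages, and with an Abcb11-/- mother the PN0 value was 0.79 above that at E17.5. Its relative Bhlhe41 was dim, at 3.15 to 3.68. Of 16 measured clock genes, 5 were higher and 2 lower at all 3 stages at any size, and Bhlhe40 alone met the rule. Nfil3, a clock output repressor, was at 8.12 and 9.21 at PN0 but within 0.22 at the other stages. Of 25 measured hypoxia targets, 9 were higher and 1 lower at all 3 stages at any size, against 13.2% and 12.7% of all 17097 genes. At PN0, 8 of the 25 were at least 1.5-fold higher, against 4.16% of all genes. Before birth there were 2 at E17.5 and 0 at E18.5, against 3.47% and 2.13%. The 1 gene at least 1.5-fold lower was at E18.5, against 1.26% of all genes. The list had medians of 0.23, -0.04 and 0.34 over the stages.

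Steap4, a metalloreductase that reduces iron and copper and is induced by inflammatory signals, was at 4.67 and 5.85 at E17.5, 6.02 and 7.06 at E18.5, and 4.81 and 5.62 at PN0. Levels at E18.5 were above those of the stages on either side with both mothers. The second probe set of Steap4 was dim, at 3.51 to 4.23, and was lower by 0.36 at E17.5 and higher by 0.63 and 0.32 later. The mean of both probe sets gave differences of 0.41, 0.84 and 0.57, and the gene then no longer met the rule. Steap1, Steap2 and Steap3 were within 1.5-fold at all 3 stages.

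Chil1, a secreted chitinase-like protein of the airway and of macrophages, had the steepest course of the 7 genes. It was at 4.80 and 6.70 at E17.5, 10.59 and 11.18 at E18.5, and 9.98 and 10.69 at PN0. The E18.5 difference of 0.591 lay just inside the 1.5-fold limit, and after quantile normalization Chil1 no longer met the rule. Its relatives did not keep their direction. Chil3 was at 3.49 and 5.47, 4.97 and 5.80, and 7.75 and 7.05, and Chil4 at 3.18 and 4.41, 4.15 and 4.57, and 6.37 and 5.28, each lower at PN0. Chia1, an acidic chitinase, was at 3.83 and 5.35, 6.93 and 6.51, and 8.39 and 7.70, lower from E18.5 on. Neutrophil genes differed on the same arrays, and their part in the Chil1 values was not tested. Of 10 measured, 4 reached the brightness minimum. At E17.5, 8 of the 10 were past 1.5-fold higher, and 2 at E18.5, against 3.47% and 2.13% of all genes. At PN0, 4 were past 1.5-fold lower, against 2.88% of all genes. Their mean log2 values were 4.99, 5.16 and 6.43 with a WT mother and 5.89, 5.52 and 6.09 with the Abcb11-/- mother.

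Ccl21b, a chemokine of lymphatic vessels that draws dendritic cells and T cells through Ccr7, was the gene lower at all 3 stages. It was at 8.27 and 7.45 at E17.5, 9.07 and 8.25 at E18.5, and 8.88 and 8.28 at PN0, which is 1.77-fold, 1.77-fold and 1.52-fold lower. Mouse Ccl21 lies in near-identical copies, and the probe set is of a kind that reads several transcripts, so the value cannot be tied to a single copy. Ccl19, the other ligand of that receptor, was dim at 3.31 to 3.75. Of 15 endothelial markers, 3 were lower and 0 higher at all 3 stages at any size, with mean log2 values of 8.26, 8.83 and 8.98 with a WT mother and 8.21, 8.69 and 8.91 with the Abcb11-/- mother.

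Brinp1, a gene known from neurons where it restrains the cell cycle, was at 5.93 and 7.14 at E17.5, 6.41 and 7.14 at E18.5, and 6.15 and 6.88 at PN0. With an Abcb11-/- mother it stayed within 0.26 over the stages, and it reached the brightness minimum on arrays of that mother alone (E17.5 and E18.5). Brinp2 and Brinp3 were at 2.59 to 3.01.

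**Figure D1:**
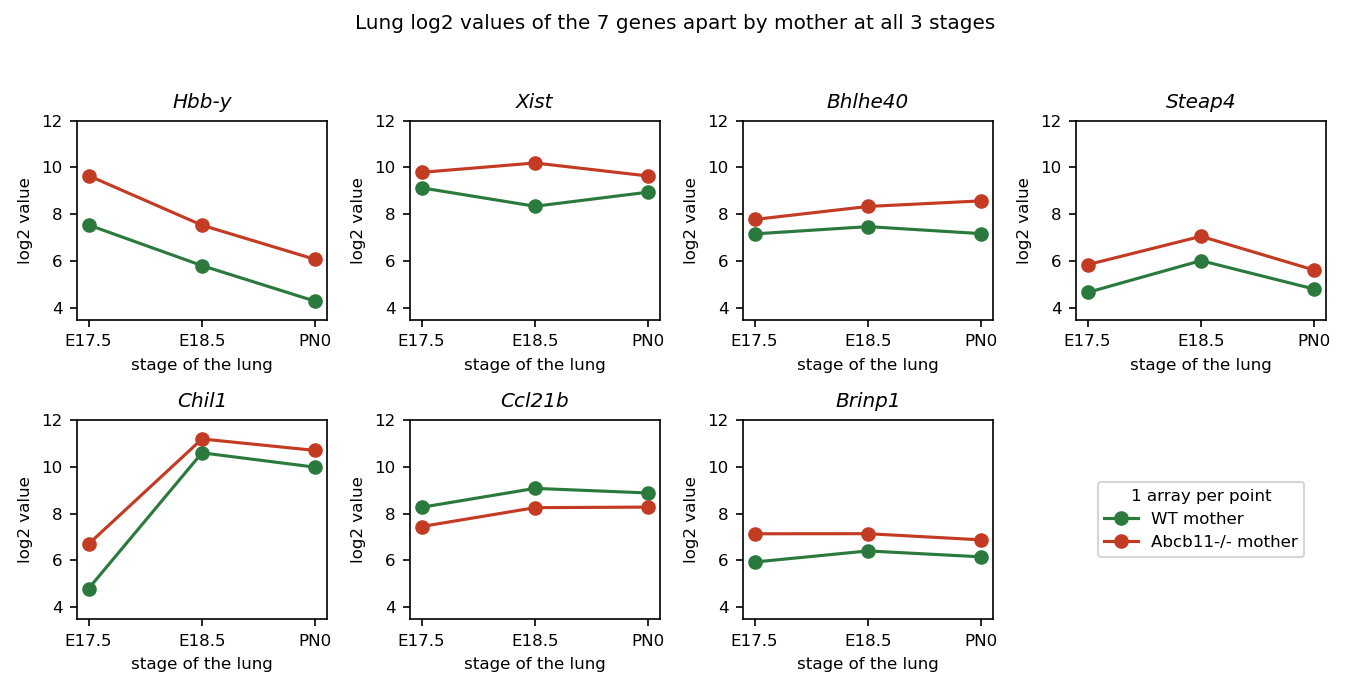
Log2 values (vertical axis, same scale in each panel) of the 7 genes at E17.5, E18.5 and PN0, with a WT mother in green and an Abcb11-/- mother in red, 1 array per point. Hbb-y falls away along parallel lines from 7.54 and 9.65 to 4.29 and 6.08, Chil1 is 4.80 and 6.70 at E17.5 and above 9.9 later, and the red points lie below the green ones for Ccl21b only.

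Across the stages, the values with either mother did not overlap for Xist, Bhlhe40 and Brinp1, whose highest value with a WT mother (9.13, 7.47 and 6.41) lay below the lowest with an Abcb11-/- mother (9.63, 7.78 and 6.88). Over the 6081 genes, 2.5% were higher without overlap and 2.73% lower. For the other 4 genes they overlapped, with wide differences between stages. The rule fixes the direction within each stage, so this separation is no sign of stability. The mother accounted for 88.22% of the variance over the 6 arrays in Brinp1, 77.83% in Bhlhe40, 77.18% in Xist, 51.29% in Ccl21b, 39.84% in Steap4, 30.86% in Hbb-y and 5.04% in Chil1. Over the 6081 genes the stage accounted for 70.79% and the mother for 10.39%. The rule chose the members on the difference by mother, so their shares are a description and do not support them.

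**Figure D2:**
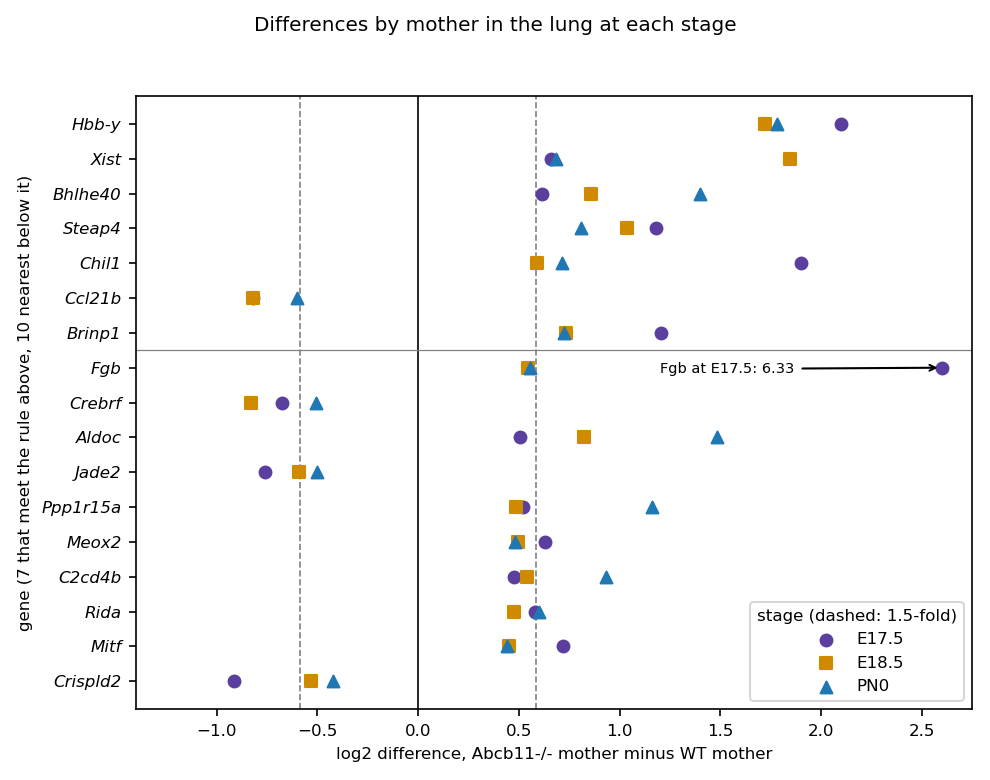
Log2 difference (horizontal axis, Abcb11-/- mother minus WT mother) at each stage for the 7 genes that meet the rule and the 10 nearest below it, with dashed lines at 1.5-fold. The E17.5 point of Fgb, 6.33, is drawn at the edge of the axis, and Chil1 at E18.5 and Ccl21b at PN0 lie closest to the dashed lines among the 7 genes.

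The members just inside the limit were Chil1 and Ccl21b, with smallest differences of 0.591 and -0.60. The genes just outside were Fgb, a fibrinogen chain of hepatocytes (6.33, 0.55 and 0.56), and Crebrf, a regulator of the stress factor Creb3 (-0.68, -0.83 and -0.51). Next came Aldoc, an aldolase of glycolysis, at 0.51, 0.82 and 1.49, and Jade2, at -0.76, -0.59 and -0.50. Ppp1r15a, which lifts the translation block of stressed cells, was at 0.52, 0.49 and 1.16. Meox2, C2cd4b, Rida, Mitf and Crispld2 followed.

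Of 22 genes at least 1.5-fold apart at all 3 stages, 7 kept a single direction and 15 did not. The patterns of mixed direction that occurred held 1 to 5 genes each. Chil3, Olfm4, Saa3, Stfa2l1 and Stfa3, which neutrophils or inflamed epithelium express, were higher in both fetal lungs of the Abcb11-/- mother and lower at PN0. Saa3, an acute phase protein, was at 3.72 and 4.33, 6.80 and 9.37, and 7.73 and 6.67. Acta1 and Myh3, genes of skeletal muscle, and Ceacam1 were higher at E17.5 and lower at both later stages. Pclaf and Uhrf1, which serve DNA replication, and Apold1, a gene of vessel walls, were lower at E17.5 and higher later, with Apold1 at 5.69 and 7.83 at PN0. Gem, Krt13 and Scgb3a1 were lower in the fetus and higher at PN0.

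**Figure D3:**
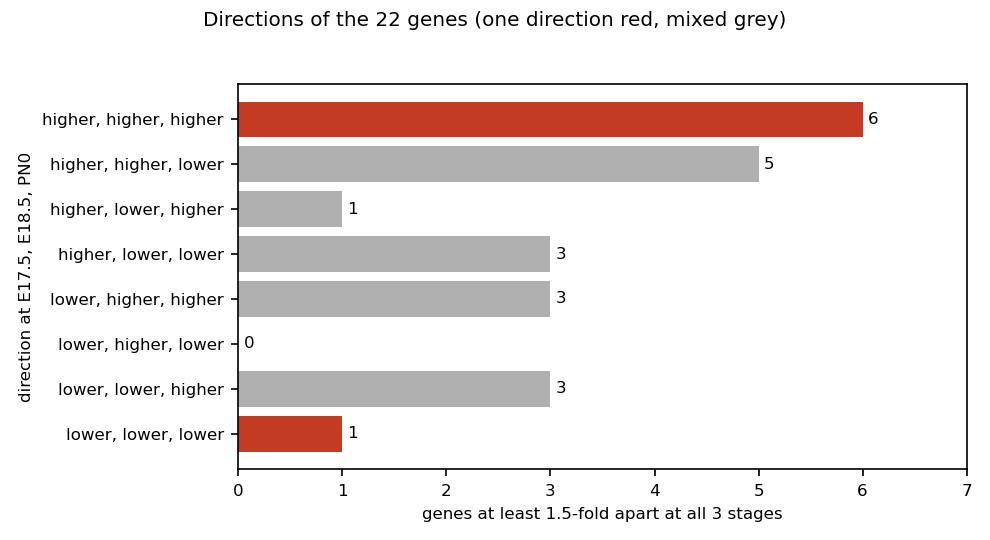
Number of genes (horizontal axis) in each pattern of direction at E17.5, E18.5 and PN0 among the 22 genes at least 1.5-fold apart at all 3 stages, higher or lower with an Abcb11-/- mother. The red bars are the 6 genes higher and the 1 gene lower throughout, and the grey bars hold the 15 of mixed direction.

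At any size, 1688 of the 6081 genes (27.8%) kept a direction. Across these genes, the differences at E18.5 and PN0 had a Pearson r of 0.164 (Spearman rho 0.151), those at E17.5 and PN0 0.0143 (0.0317), and those at E17.5 and E18.5 -0.0049 (-0.0274). Genes are not independent replicates, and each pair of stages shares no array. The SD of the differences over genes was 0.504 at E17.5, 0.207 at E18.5 and 0.333 at PN0.

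The stages differed in how many genes stood apart. At E17.5, the Abcb11-/- mother had 213 of the 6081 genes at least 1.5-fold higher (3.5%) and 161 lower (2.65%). At E18.5 there were 53 (0.872%) and 32 (0.526%), and at PN0 262 (4.31%) and 162 (2.66%). Over all 17097 genes, dim ones included, 3.47% were higher and 3.55% lower at E17.5, 2.13% and 1.26% at E18.5, and 4.16% and 2.88% at PN0. These shares over all genes are also the background for the counts of list genes past 1.5-fold at a stage. Each stage was a comparison of 2 arrays, so the counts describe those arrays.

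At E17.5 the genes furthest higher were Fgb and Fgg, fibrinogen chains of hepatocytes, and Tnnc2, Acta1 and Myh8 of skeletal muscle, at differences of 5.83 to 6.33. The genes furthest lower were the stratified epithelium keratins Krt4 (6.29 and 3.22) and Krt13, the smooth muscle genes Cnn1 and Actg2, and the prostaglandin D synthase Ptgds (8.65 and 6.80).

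At E18.5 the genes furthest higher were Saa3, Xist, Hbb-y, Edn1 and Vnn3. Edn1, the vasoconstrictor endothelin, was 6.30 and 7.98 there, 7.32 and 8.71 at PN0 and 6.81 and 6.38 at E17.5. Vnn3, a pantetheinase family gene, was at 5.95 and 7.45. The furthest lower were Eif2s3y, Kdm5d, Myh3, Zbtb8b (7.29 and 6.21) and Gem (7.47 and 6.52), so 3 of these 10 genes, Xist, Eif2s3y and Kdm5d, are sex-linked. Hbb-y and Xist were the members among the 10.

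At PN0 the furthest lower genes were Angptl4, an inhibitor of lipoprotein lipase (8.43 and 6.54), Serpina3n (7.05 and 5.24), Hpgd, which breaks down prostaglandins (9.23 and 7.57), Bmp6 (7.93 and 6.41) and the neutrophil collagenase Mmp8 (7.59 and 6.10). The furthest higher were Egr1, Nr4a1, Egln3, Ppp1r3b and Lum. Lum, a matrix proteoglycan of fibroblasts, was at 5.49 and 7.84, and Ppp1r3b, which guides glycogen storage, at 5.81 and 8.26, each below all other lung arrays on the PN0 array of the WT mother.

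A model over the 6 arrays with stage as a term used the spread of the difference between stages. It called 0 genes for the mother among 17097 (0% at an adjusted p under 0.05 from limma), with 867 at an unadjusted p under 0.05. Hbb-y had the smallest p (log2 difference 1.87, standard error 0.13, adjusted p = 0.12 from limma), and the adjusted p of each of the other 6 members was 0.93. Because the rule used this contrast, these values do not support the members. With a trended and robust prior, limma called Hbb-y alone. The fit had 2 residual degrees of freedom, which limits what it can call.

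Stage contrasts do not use the mean difference by mother. Their standard error comes from the spread of that difference between stages, and the rule drew on the same differences. The p-values of members below are therefore not independent of the rule. The brightness minimum also let some members in through the stage where they were high. Steap4 reached it on the E18.5 array of the Abcb11-/- mother alone, Chil1 on the 4 arrays of E18.5 and PN0, and Hbb-y on both E17.5 arrays and that E18.5 array, so their stage differences are in part fixed by the choice. From E17.5 to E18.5, limma called 9 genes higher (0.0526%) and 1 lower (0.00585%). Chil1 rose by 5.13 (standard error 0.33, adjusted p = 0.031 from limma), by 5.79 with a WT mother and 4.48 with the Abcb11-/- mother. Hbb-y fell by 1.92 (standard error 0.15, adjusted p = 0.040 from limma), by 1.73 and 2.11, and was the 1 gene called lower. After quantile normalization neither was called (adjusted p = 0.053 and 0.058 from limma), and with averaged probe sets Hbb-y was not (0.10). Steap4 (1.28) and Ccl21b (0.81) had an adjusted p of 0.086 and 0.12 from limma.

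From E18.5 to PN0, limma called 0 genes higher (0%) and 0 lower (0%), with 2098 at an unadjusted p under 0.05 and 62 higher and 25 lower with a trended and robust prior. Hbb-y differed by -1.49 (adjusted p = 0.078 from limma) and Steap4 by -1.33 (adjusted p = 0.094 from limma). With the trended and robust prior both passed (adjusted p = 0.012 and 0.038 from limma), Steap4 with the array that let it in on the higher side. The other 5 members had an adjusted p of 0.56 or more.

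In the adult liver, limma called 737 genes higher in Abcb11-/- mice (4.31%) and 489 lower (2.86%) of 17097. Among the 7 genes it called Xist. The log2 values of Xist were 10.97, 10.55 and 10.80 in WT livers and 10.37, 10.11 and 10.19 in Abcb11-/- livers, without overlap. That is a fall of 0.55 (standard error 0.13, adjusted p = 0.047 from limma), while in the lung Xist was higher with an Abcb11-/- mother. The liver contrast is by the genotype of the animal itself and the lung contrast by that of the mother, so the directions are not of like comparisons. The call held without Abcb11-/- replicate 1 and was lost without each of the other 5 arrays in turn (adjusted p = 0.050 to 0.14 from limma), after quantile normalization (0.056) and after median centring (0.052). All 6 livers are labelled as female.

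Ccl21b, lower in the lung of an Abcb11-/- mother, was at 3.80, 3.93 and 3.82 in WT and 4.37, 3.91 and 4.52 in Abcb11-/- livers, which differs by 0.42 (adjusted p = 0.17 from limma, or 0.018 without Abcb11-/- replicate 2). Steap4 averaged 9.53 ± 0.08 (SD, n = 3) in WT livers. The Abcb11-/- livers averaged 9.72 ± 0.24 (SD, n = 3), and the adjusted p was 0.46 from limma. Bhlhe40 was at 10.19, 10.22 and 8.77 in Abcb11-/- livers against 9.94 to 10.08 in WT livers (adjusted p = 0.74 from limma). Hbb-y, Brinp1 and Chil1 were at 2.37 to 3.14 on all 6 liver arrays, near the dim end.

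**Figure D4:**
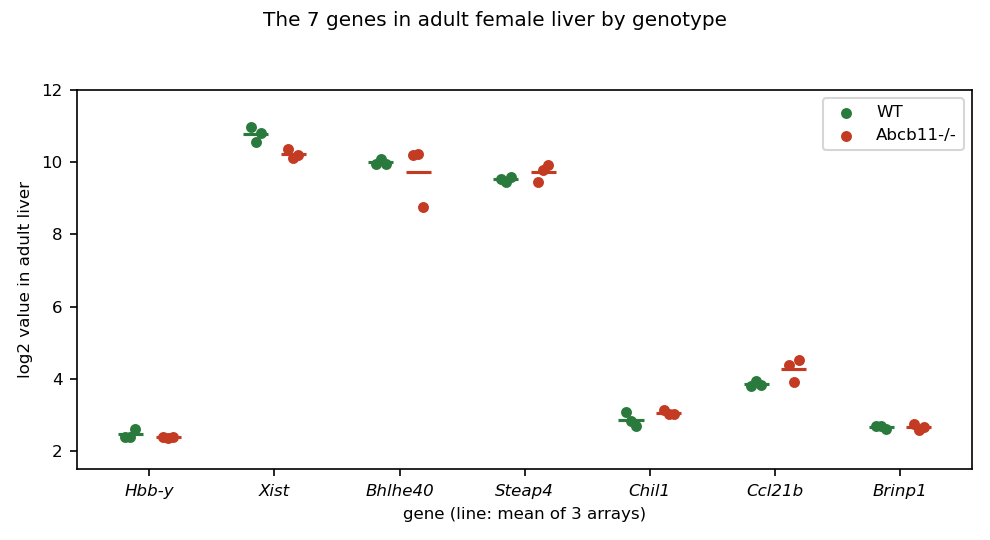
Log2 values (vertical axis) of the 7 genes in adult female liver, 3 WT arrays in green and 3 Abcb11-/- arrays in red, with a line at each mean. Xist is lower in all 3 Abcb11-/- livers, and the Abcb11-/- livers spread widest in Bhlhe40, from 8.77 to 10.22.

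Gene lists were described beside the counts over all genes, of which 13.2% were higher and 12.7% lower at all 3 stages at any size. These shares are the background for the clock, endothelial, sterol, glucocorticoid and fatty acid counts too. Of 16 measured genes of sterol synthesis, 9 were higher and 0 lower with an Abcb11-/- mother at all 3 stages at any size, with medians of 0.18, 0.23 and 0.23 against -0.03, 0.01 and 0.01 over all genes. Idi1, an isomerase of the mevalonate pathway, was at 7.51 and 7.87, 7.48 and 7.96, and 7.20 and 7.82. Msmo1, a sterol oxidase, differed by 0.38, 0.35 and 0.64, and Fdps, the farnesyl diphosphate synthase, by 0.12, 0.49 and 0.46. Insig1, which holds sterol sensing in the endoplasmic reticulum, differed by 0.79, 0.04 and 0.74. None of the 16 met the rule, and Sqle, the squalene epoxidase, was 1.5-fold higher at E18.5 alone (0.75).

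Of 18 measured genes of endoplasmic reticulum and amino acid stress, 7 were higher and 0 lower at all 3 stages at any size, where 13.2% and 12.7% of all genes were. The same held for 7 and 0 of 19 glycolysis genes, for 4 and 0 of 13 chaperones, and for 7 and 0 of 29 genes of lung development. At PN0, 10 of the 19 glycolysis genes were at least 1.5-fold higher, against 4.16% of all genes. Type II cell genes were higher at E17.5 (7 of 12 at least 1.5-fold, median 0.61), Sftpd at 9.02 and 10.43 among them, and had medians of 0.07 and 0.04 later.

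Of 37 measured genes of bile acid sensing and transport, 5 were higher and 2 lower at all 3 stages at any size, where all genes gave 13.2% and 12.7%, with medians of 0.12, -0.08 and 0.05. At E17.5, where the hepatocyte genes were higher, 6 were at least 1.5-fold higher, among them the hepatocyte genes Cyp3a11 (3.59 and 6.52) and Slc10a1 (3.23 and 4.88). The organic anion transporter Slco4c1 was at 5.78 and 6.68, 6.75 and 6.56, and 6.15 and 6.47. The cross swaps only the parent that gave the deleted Abcb11 allele, on a C57BL/6 background. Counts of imprinted genes are therefore no check of an effect of that parent. Imprinted genes were listed as a description. Of 43 measured, 5 were higher and 6 lower at all 3 stages at any size, close to the 13.2% and 12.7% of all genes, and 0 met the rule.

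At E18.5, the lists of type II, type I, ciliated, endothelial, smooth muscle and fibroblast markers had 0 genes past 1.5-fold in either direction. Over all genes 2.13% were that far higher and 1.26% lower at that stage, so counts of 0 are close to those shares. Glucocorticoid targets were 3 higher and 6 lower of 18 at all 3 stages at any size, with medians of -0.09, -0.19 and 0.07. Fatty acid oxidation genes were 3 and 3 of 17. At PN0, 5 of them were at least 1.5-fold lower, against 2.88% of all genes, among them the carnitine palmitoyltransferase Cpt1a (9.22 and 8.15).

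**Figure D5:**
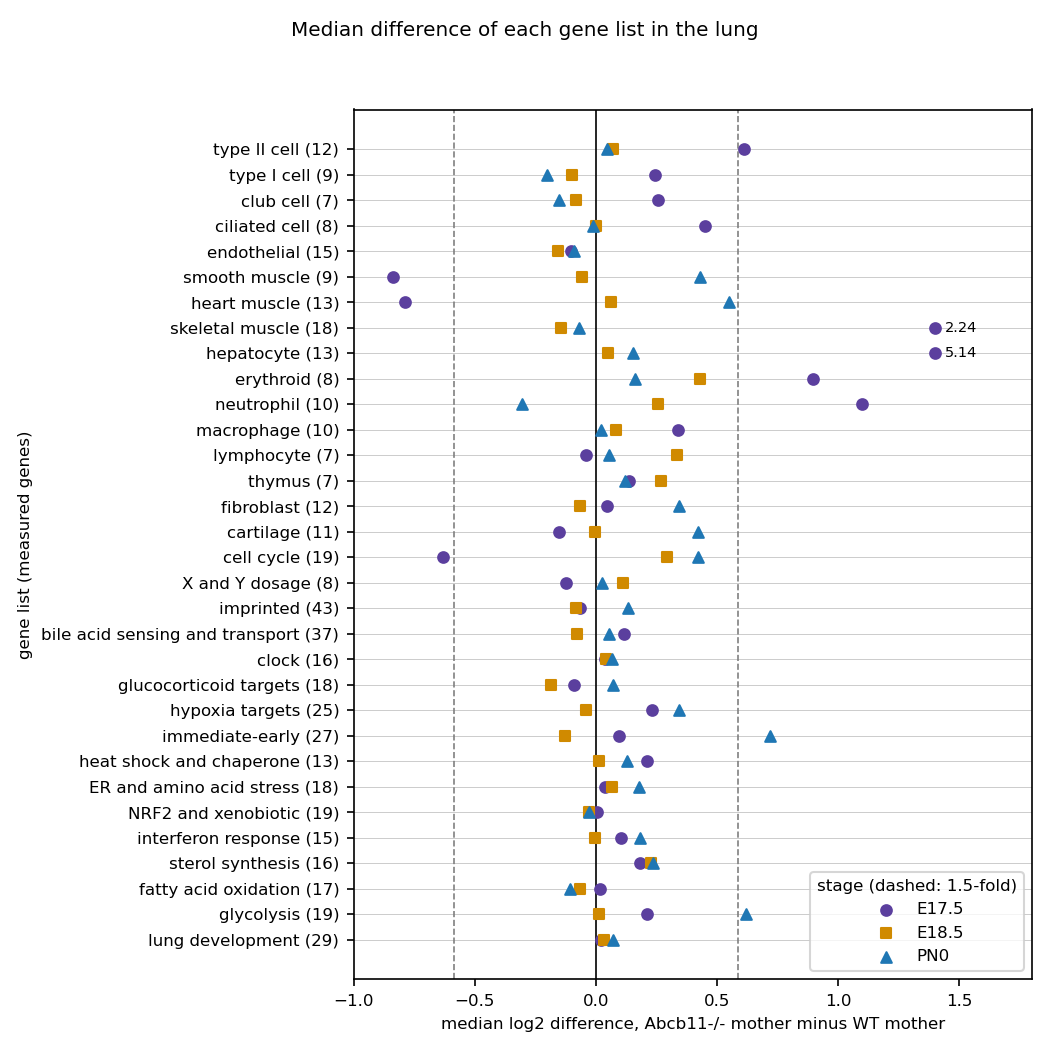
Median log2 difference (horizontal axis, Abcb11-/- mother minus WT mother) of each gene list at the 3 stages, with the number of measured genes in brackets and dashed lines at 1.5-fold. Points past the axis are drawn at its edge with their value, 2.24 for skeletal muscle and 5.14 for hepatocytes at E17.5, and sterol synthesis is close to 0.2 at each stage.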

How the data were processed

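Arrays were Affymetrix mouse 430 PM plates. The deposited values are log2 and were made by the authors by robust multiarray averaging (RMA), with Partek 6.5 in the submitters' notes. Of 45037 probe sets, 28898 had 1 gene name, 551 several and 15588 none, and 28689 were matched to RefSeq (GRCm38.p6) by gene number. For each of 17097 genes the probe set with the highest mean over the lung arrays was used, and 7180 genes had several. Differences by mother subtract the WT value from the Abcb11-/- value. Tests used limma 3.58.1 in R 4.3.3 (lmFit, eBayes, Benjamini-Hochberg over all genes), on the lung arrays with stage and mother as terms and on the liver arrays by genotype, and were tested on simulated data. P-values measure the spread between these arrays.

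The members and gene lists were chosen with earlier results of these data known. Named genes are the members, the 10 genes nearest below the limit, the 5 furthest apart each way at each stage, the smallest p-values for the mother, up to 4 genes of each list, and genes the study measured. Genes of mixed direction and relatives of the members were named after their values were seen. Alternatives were averaged probe sets, other fold and brightness limits, quantile normalization, median centring, another prior, no stage term, a replicate block in the liver, left-out stages or arrays, and the methods' t-test. The number of arrays limits the precision, and the values carry no detection call. Of 16139 probe sets without a single gene name, 2191 reached the brightness limit and 0 met the rule.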

Additional observations from a re-analysis of the deposited data

Results flagged for a closer look

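The medians of 3 lists were past 1.3-fold in opposite directions at 2 stages. No test compares the stages, so this difference was not tested, and each stage is 1 array per mother. For smooth muscle genes the median was -0.84 (log2) at E17.5 and 0.43 at PN0, and their mean log2 value at E17.5 was 7.24 with a WT mother and 6.42 with the Abcb11-/- one. Heart muscle genes were at -0.79 and 0.55, with the atrial myosin light chain Myl7 at 9.21 and 7.69 at E17.5 and at 8.39 and 9.24 at PN0. Cell cycle genes were at -0.63 and 0.42, with 11 of 19 at least 1.5-fold lower at E17.5 and 4 higher at PN0, such as Rrm2 (8.60 and 7.92, then 5.63 and 6.48). Groups of 3 arrays were not tested for outliers.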

How the results depend on the processing

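The number of genes that met the rule, 7, was 23 at 1.3-fold, 1 (Hbb-y) at 2-fold and 12 with no brightness minimum. Without a stage in turn it was 24 to 49, since fewer conditions remain, with all 7 members each time. With averaged probe sets it was 7 (6 members, with Scd1 in place of Steap4), after quantile normalization 6 (without Chil1), and at brightness minimums of 6 and 8 it was 10 and 5 (without Steap4 and Brinp1). Genes at least 1.5-fold apart at E17.5, E18.5 and PN0, 374, 85 and 424, were 934, 389 and 1071 at 1.3-fold, 117, 15 and 102 at 2-fold, 613, 194 and 645 at a brightness of 6, 190, 33 and 233 at 8, and 1200, 579 and 1204 with no minimum. For the mother over the stages limma called 1 gene with a trended and robust prior and 0 under every other alternative, among them each stage left out (0 to 0), and the methods' t-test passed 523 unadjusted and 0 adjusted. Members called between stages, 2, were 1 with averaged probe sets, 0 after quantile normalization and 4 with the trended and robust prior. In the liver, the 1 member called became 0 after quantile normalization, after median centring and with the methods' t-test adjusted, and 0 to 1 without each array. The replicate block, the paired fit for the labels' replicate numbers, called 1 member there, and 430 genes higher and 245 lower against 737 and 489. Without each liver array in turn, 321 to 873 genes were higher and 184 to 607 lower, with the brightness minimum 464 and 272, and the methods' t-test gave 1696 and 1428 unadjusted and 25 and 24 adjusted. From E17.5 to E18.5, the 9 genes called higher and 1 lower became 130 and 67 with the trended and robust prior and 0 and 0 after quantile normalization. From E18.5 to PN0, 0 and 0 became 12 and 2 with averaged probe sets. With averaged probe sets, quantile normalization or median centring, no difference of a member by mother reversed.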

Other observations

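The fold was met at all 3 stages but not the brightness minimum by 5 genes. Shisa2, an antagonist of Wnt and Fgf receptors, was at log2 values of 5.28 and 6.54 at E17.5, 5.88 and 6.84 at E18.5, and 3.92 and 5.54 at PN0 with a WT and an Abcb11-/- mother. Ptger3, a prostaglandin E2 receptor, was at 5.79 and 6.62, 6.19 and 6.81, and 4.81 and 5.84. Asz1, a germ cell gene, differed by 0.90, 0.73 and 1.71. Gabbr1, a subunit of the GABA-B receptor, was lower with an Abcb11-/- mother, at 5.03 and 4.20, 5.07 and 4.31, and 4.94 and 4.05, as was Rpusd3, at 4.66 and 3.57, 4.06 and 3.45, and 4.51 and 3.80.

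With E17.5 left out, the stage whose array of the Abcb11-/- mother carried hepatocyte and muscle transcripts, 24 genes met the rule at the other 2 stages, 18 higher and 6 lower. Edn1 and Egr1 were among those higher, and so was Hells, a chromatin remodeller, beside the replication genes Mcm4, Pclaf and Uhrf1. Of the 42 genes added to the members with E18.5 left out, Alb, Afp, Arg1 and Ttr are hepatocyte genes, and Scd1, a desaturase of fatty acids, was at 9.05 and 10.71 at E17.5, 11.69 and 11.86 at E18.5, and 10.45 and 11.90 at PN0.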
